A study of Mus musculus with 6 samples.

Results

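The imprinted genes of the mouse were compared between M0505 cells, a line of ovarian surface epithelial cells from FVB/N mice, and STOSE cells, the line that arose when M0505 cells transformed spontaneously in long-term culture. Of 39 imprinted genes and close neighbours of imprinted genes listed by name, 38 were found by gene symbol among the 20405 genes of the deposited array table, and no row of the table carries the symbol *Zdbf2*. Of several probe sets of a gene, the one that was brightest on average over the 6 arrays was used. That choice used levels only and touched 3 genes, *Gnas*, *H19* and *Rtl1*. The list was drawn up with earlier results of these arrays known, so its counts are a description of the list and are not independent evidence.

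Total RNA of M0505 cells (3 arrays) and STOSE cells (3 arrays) was measured on Mouse Gene 1.0 ST GeneChips (Affymetrix), and the values are log2 values after robust multi-array average (RMA) normalization. Both lines share the FVB/N strain, the ovarian surface epithelium as tissue and the same growth medium with fetal calf serum and EGF, and the labels name no transgene and no treatment. The labels call the arrays of a line biological replicates but do not say that they came from separate animals, so the p-values measure only the spread between these samples, and each group is a single line. According to the study, the karyotyped cells of both lines had abnormal chromosome numbers. Among other changes, the M0505 cells had lost a copy of chromosome 12, which carries the *Dlk1*-*Dio3* cluster, or were short of it. For the STOSE cells, most of them near-triploid, the study names no loss of that chromosome. Whether chromosome copy number bears on the values below was not tested.

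An imprinted gene is read mainly or only from the copy inherited from the mother or from the copy inherited from the father. The choice is set in the germ line by DNA methylation at control regions, which usually govern a cluster of neighbouring genes, and the mark is copied at each cell division. Many imprinted genes act on fetal and placental growth, and several clusters are known for losing or gaining expression in tumors and in long-term culture. These arrays measured the summed RNA of both copies and not the copy it came from, so they do not show whether an imprint was kept.

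Calls required at least a 2-fold difference together with a limma p under 0.05 after Benjamini-Hochberg adjustment over all 20405 genes. Of the 38 imprinted genes, 9 were called lower in STOSE cells, which is 23.7% against 7.59% of all genes. 1 was called higher, which is 2.63% against 4.90% of all genes. The 9 lower genes were *Peg10*, *Sgce*, *Ppp1r9a*, *Pon3* and *Pon2* of the *Sgce*-*Peg10* cluster on chromosome 6, *Ddc* on chromosome 11, *Slc22a18* and *Ndn* on chromosome 7 and *Impact* on chromosome 18. The higher gene was *Peg3* on chromosome 7. Outside the *Sgce*-*Peg10* cluster 4 of 31 genes (12.9%) were lower. The median log2 fold change of the 38 genes was 0.01, against 0.08 over all genes. With a threshold of 4-fold 6 of them were lower, against 2.49% of all genes. In bulk RNA, fewer cells that express a gene and less RNA per cell cannot be told apart.

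Signal over background was judged from the olfactory receptor probe sets, taken as silent in these cells, whose 95th percentile was a log2 value of 4.74. By this measure 9 of the 38 genes lay under the percentile on all 6 arrays, and 19 lay above it on all 6. The 2 lines expressed the labelled tissue's markers, with *Krt7*, *Krt18*, *Wt1*, *Upk3b* and *Msln* among the 8 of 9 epithelial and mesothelial genes above the percentile on every array. The mean log2 level of these 9 genes was 10.52 to 10.63 in M0505 cells and 8.85 to 9.01 in STOSE cells. Of the 9, 4 (44.4%) were called lower in STOSE cells, against 7.59% of all genes, and none higher. The 4 were *Krt19* (47.2-fold), *Krt8* (23.5-fold), *Gata4* (2.60-fold) and *Krt7* (2.04-fold). The 4 endothelial markers averaged 5.93 to 6.01 against 4.60 to 4.65, with *Kdr* at least 28.6-fold lower (STOSE arrays under the percentile set to it) and no other member called. *Cdh5* had a log2 fold change of 0.20 and *Tek* of 0.01, and *Pecam1* lay under the percentile on all 6 arrays. The 4 leukocyte markers averaged 5.74 to 5.89 against 5.16 to 5.19, with *Cd68* 7.08-fold lower, while *Ptprc* lay under the percentile on all 6 arrays. The 6 granulosa and steroid-producing cell markers averaged 5.74 to 5.76 against 4.74 to 4.84, with *Star* 62.7-fold lower. *Fshr*, *Cyp19a1* and *Cyp11a1* lay under the percentile on all 6 arrays, while *Foxl2* lay above it on all 6 and was not called (log2 fold change -0.37). The 4 stromal genes averaged 8.15 to 8.23 against 8.32 to 8.47, with members in opposite directions: *Thy1* was called higher (log2 fold change 1.49) and *Col1a2* lower (-2.45), and *Col1a1* (0.95) and *Pdgfra* (0.84) were not called. The 3 germ cell genes averaged 3.48 to 3.54 against 3.84 to 4.04. Of these *Ddx4* alone was called, 2.15-fold higher, but it lay under the percentile on all 6 arrays. The part of these shifts in the results below was not tested.

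**Figure D1:**
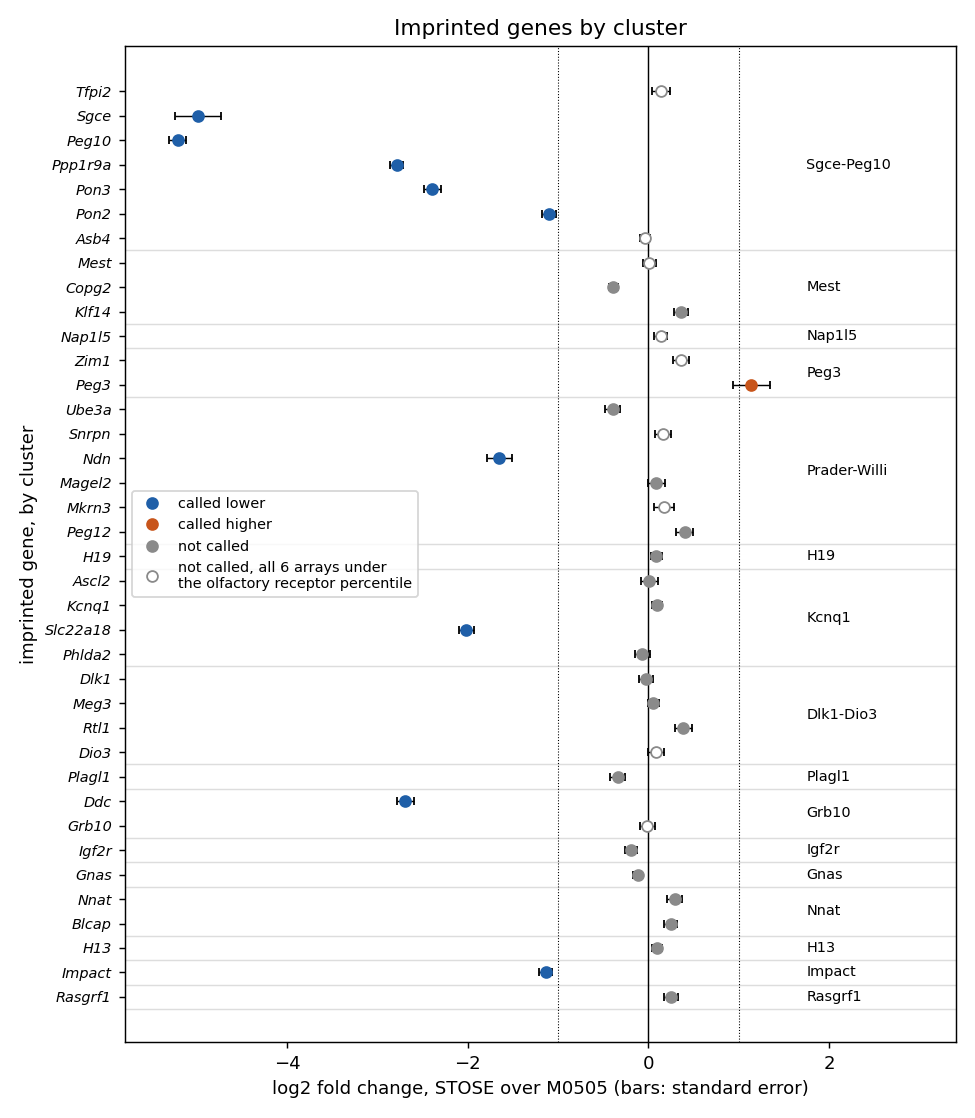
Log2 fold change of STOSE over M0505 cells (horizontal axis, points) with its standard error (bars) for the 38 imprinted genes, grouped by cluster on the vertical axis. The 9 called genes on the left are blue, *Peg3* is orange, genes not called are grey, open symbols mark genes under the olfactory receptor percentile on all 6 arrays, and dotted lines mark 2-fold.

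The *Sgce*-*Peg10* cluster held 5 of the 9 lower genes and, in *Peg10* and *Sgce*, the largest falls of the list. *Peg10*, a retrotransposon-derived gene needed for the placenta, and *Sgce*, which encodes epsilon-sarcoglycan, are neighbours transcribed away from a shared control region, and both are expressed from the paternal copy. *Peg10* had log2 values of 9.87, 10.07 and 10.03 on the M0505 arrays and 4.60, 4.93 and 4.82 on the STOSE arrays. *Sgce* had values of 9.91, 10.49 and 10.32 in M0505 cells and 4.65, 5.66 and 5.45 in STOSE cells. For both genes the arrays of the lines were far apart, and the STOSE arrays lay close to the olfactory receptor percentile, with 2 of 3 above it. *Peg10* was 37.0-fold lower in STOSE cells (-5.21 on the log2 scale, standard error (SE) 0.10, limma adjusted p = 5.20e-09), and the fold ranged from 34.8 to 38.96 when single arrays were left out. *Sgce* was 31.7-fold lower (-4.99 on the log2 scale, SE 0.25, adjusted p = 9.71e-07), with a range of 25.7 to 36.5. The order of the 2 falls is not resolved by their standard errors.

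Of the 5 maternally expressed genes of the cluster, 3 were also lower. *Ppp1r9a*, which encodes the actin-binding phosphatase scaffold neurabin, had values of 7.33, 7.27 and 7.31 in M0505 cells and 4.56, 4.38 and 4.61 in STOSE cells, all 3 of the latter under the olfactory receptor percentile. *Pon3* and *Pon2* encode paraoxonases, enzymes that hydrolyse lactones. *Pon3* had values of 9.76, 9.83 and 9.80 in M0505 cells and 7.19, 7.52 and 7.51 in STOSE cells, and *Pon2* had 9.34, 9.49 and 9.54 against 8.27, 8.46 and 8.36. Both stayed well above the percentile in STOSE cells. *Ppp1r9a* was at least 5.90-fold lower (limma adjusted p = 2.58e-08), a bound that sets STOSE arrays under the percentile to the percentile itself. A fall as large as that of *Peg10* or *Sgce* could not have been seen from its level in M0505 cells. *Pon3* was 5.24-fold lower (SE 0.09 as log2, adjusted p = 2.59e-07) and *Pon2* 2.14-fold lower (SE 0.08, adjusted p = 5.65e-06). *Pon2* lay close to the 2-fold threshold and was not past it when each array was centred on its median (log2 fold change -0.93). The other 2 members could not show a fall of this kind. *Tfpi2*, a protease inhibitor gene, had means of 3.65 ± 0.18 (SD, n = 3) and 3.79 ± 0.12 (SD, n = 3), and *Asb4*, an ankyrin repeat gene, 3.77 ± 0.04 and 3.74 ± 0.02, so that both were under the percentile on all 6 arrays.

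**Figure D2:**
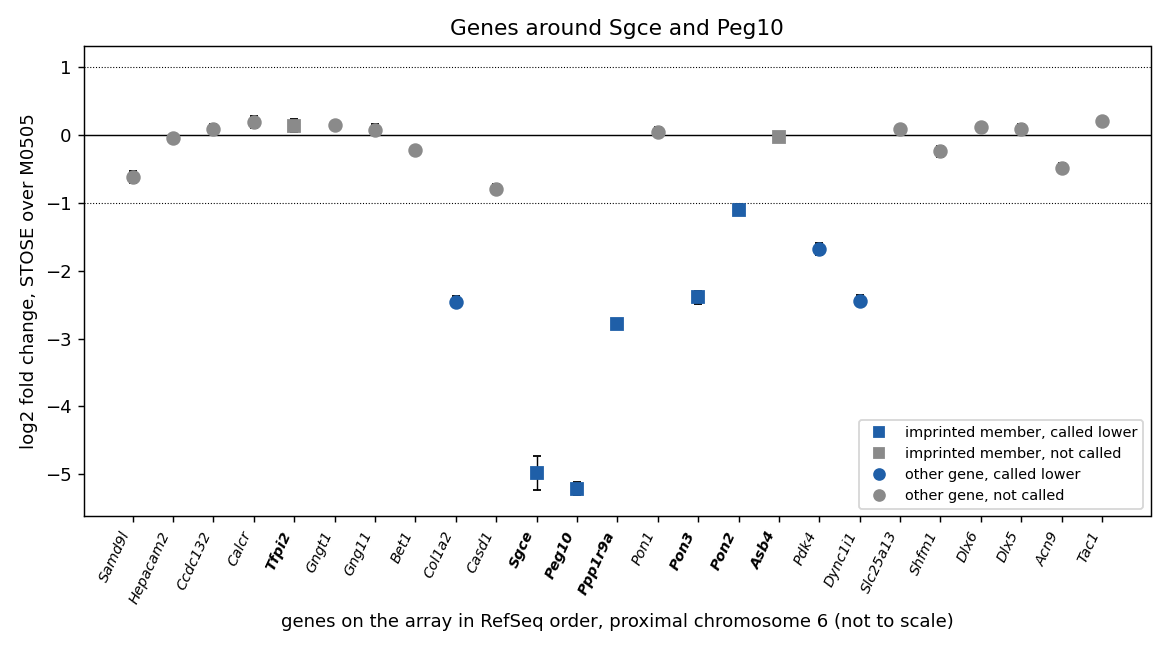
Log2 fold change of STOSE over M0505 cells (vertical axis, points) with its standard error (bars) for 25 genes in RefSeq order around *Sgce* and *Peg10* (horizontal axis, not to scale). Squares and bold names are imprinted members, circles are other genes, blue marks genes called lower and dotted lines mark 2-fold. The blue points run from *Col1a2* to *Dync1i1*, and *Pon1* and *Asb4*, which lie near 0 among them, were under the olfactory receptor percentile in both lines.

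The low values were not limited to the imprinted members. In RefSeq order, 11 genes on the array ran from *Col1a2* to *Dync1i1*, 6 of them members and 5 not. Of the 11, 8 were called lower, 5 members and 3 others, against 7.59% of all genes and 6.92% of those of chromosome 6. *Col1a2*, which encodes a chain of type I collagen and stands on the far side of *Casd1*, had values of 8.52, 8.40 and 8.36 in M0505 cells and 5.87, 5.99 and 6.07 in STOSE cells, which is 5.48-fold lower (SE 0.07, limma adjusted p = 6.04e-08). *Pdk4*, a kinase gene that restrains pyruvate dehydrogenase, and *Dync1i1*, a dynein intermediate chain gene, lie beyond *Asb4*. *Pdk4* was at least 2.23-fold lower (adjusted p = 1.68e-06), with all 3 STOSE arrays under the olfactory receptor percentile, and *Dync1i1* was 5.42-fold lower (SE 0.09, adjusted p = 1.33e-07). *Casd1*, a sialic acid acetyltransferase gene next to *Sgce*, had a log2 fold change of -0.80 (SE 0.08, adjusted p = 3.63e-05), under 2-fold. The remaining 2 genes of the run, *Pon1* and *Asb4*, were under the olfactory receptor percentile in both lines. On the outer sides *Bet1* (-0.22 on the log2 scale, SE 0.06, limma adjusted p = 0.0182) and *Slc25a13* (0.09, SE 0.06), both well expressed, were not called. Farther out, *Samd9l* (-0.62), *Acn9* (-0.49) and *Shfm1* (-0.24) were lower with an adjusted p under 0.05, but under 2-fold. *Ccdc132* (0.10), *Dlx6* (0.12) and *Dlx5* (0.09) were not lower. The median log2 fold change of all genes of chromosome 6 was 0.08, as it was over all genes. The ends of this run were chosen after its values were seen, and whether it shares a cause was not tested.

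Promoter windows of the called members are shown to set the cluster beside the other called genes. Methylation of CpG dinucleotides is the mark that imprinting uses, but it is set at control regions. These windows were placed by gene start and were not chosen as control regions, so their CpG counts do not describe the imprint mark. RefSeq windows of 300 bases (250 before and 50 after the start, GRCm38.p6) could be assigned through the symbol to 31 of the 38 genes, and of several windows of a gene the one with the most CpG was taken. The 7 genes without a window were *H19*, *Rtl1*, *Kcnq1*, *Klf14*, *Impact*, *Sgce* and *Peg10*. No window therefore stood for the control region that *Sgce* and *Peg10* share. In the sequences, written 5′ to 3′, each CpG is in capitals.
*Ppp1r9a* (chr6:4903061-4903360, plus strand, 48 CpG): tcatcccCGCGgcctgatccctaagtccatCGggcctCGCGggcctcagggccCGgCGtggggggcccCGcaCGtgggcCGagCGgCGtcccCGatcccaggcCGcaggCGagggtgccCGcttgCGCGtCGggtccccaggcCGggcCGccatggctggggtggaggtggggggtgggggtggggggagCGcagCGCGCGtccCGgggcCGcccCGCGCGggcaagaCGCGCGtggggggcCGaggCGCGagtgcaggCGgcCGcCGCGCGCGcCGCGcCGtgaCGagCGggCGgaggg
*Pon3* (chr6:5256184-5256483, minus strand, 7 CpG): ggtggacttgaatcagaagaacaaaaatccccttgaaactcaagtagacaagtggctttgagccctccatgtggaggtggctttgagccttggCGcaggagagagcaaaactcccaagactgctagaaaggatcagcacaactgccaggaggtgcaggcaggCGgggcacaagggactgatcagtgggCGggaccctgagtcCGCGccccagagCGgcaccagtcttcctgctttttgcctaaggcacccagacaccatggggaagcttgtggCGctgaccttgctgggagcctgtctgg
*Pon2* (chr6:5298291-5298590, minus strand, 31 CpG): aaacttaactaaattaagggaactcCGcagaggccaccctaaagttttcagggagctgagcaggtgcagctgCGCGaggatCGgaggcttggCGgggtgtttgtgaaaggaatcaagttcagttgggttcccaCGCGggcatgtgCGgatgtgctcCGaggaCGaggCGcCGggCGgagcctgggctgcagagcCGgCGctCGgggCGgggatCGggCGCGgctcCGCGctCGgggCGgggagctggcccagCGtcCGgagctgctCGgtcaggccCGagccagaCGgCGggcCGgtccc
*Ndn* (chr7:62348027-62348326, plus strand, 11 CpG): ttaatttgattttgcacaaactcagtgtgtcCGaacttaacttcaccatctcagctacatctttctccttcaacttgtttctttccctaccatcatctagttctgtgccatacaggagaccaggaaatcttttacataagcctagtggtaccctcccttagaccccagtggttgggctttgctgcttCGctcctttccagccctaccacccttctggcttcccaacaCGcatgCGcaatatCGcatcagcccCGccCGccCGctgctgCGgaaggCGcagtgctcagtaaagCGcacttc
*Slc22a18* (chr7:143473539-143473838, plus strand, 2 CpG): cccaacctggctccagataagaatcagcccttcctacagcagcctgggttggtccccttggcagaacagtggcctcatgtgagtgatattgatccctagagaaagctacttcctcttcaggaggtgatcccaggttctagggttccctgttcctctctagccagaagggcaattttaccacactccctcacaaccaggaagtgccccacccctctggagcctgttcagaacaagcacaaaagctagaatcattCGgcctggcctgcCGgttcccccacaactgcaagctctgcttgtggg
*Ddc* (chr11:11890359-11890658, minus strand, 5 CpG): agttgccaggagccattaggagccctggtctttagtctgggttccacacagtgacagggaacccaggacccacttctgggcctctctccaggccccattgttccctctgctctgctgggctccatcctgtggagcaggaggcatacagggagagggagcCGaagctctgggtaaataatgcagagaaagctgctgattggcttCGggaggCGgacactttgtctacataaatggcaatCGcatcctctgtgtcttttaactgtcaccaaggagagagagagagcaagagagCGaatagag
*Peg3* (chr7:6730370-6730669, minus strand, 13 CpG): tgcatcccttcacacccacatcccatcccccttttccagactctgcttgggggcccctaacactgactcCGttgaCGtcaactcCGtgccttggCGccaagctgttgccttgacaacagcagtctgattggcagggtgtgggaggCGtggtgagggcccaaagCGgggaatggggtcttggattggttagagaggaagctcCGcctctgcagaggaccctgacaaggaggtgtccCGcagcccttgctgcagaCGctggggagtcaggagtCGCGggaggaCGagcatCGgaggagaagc

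The called genes did not share one kind of promoter window. The 48 CpG of *Ppp1r9a* are reached by 1.399% of the 27025 genes with a window, and the 31 of *Pon2* by 11.7%, while *Slc22a18* has 2, a number reached by 86.2%. *Pon3* has 7 and its neighbour *Pon2* 31, and both fell. The median was 11 CpG over the 7 called members, 18.5 over the 24 members not called and 8 over all genes. The hexamer TGCCGC, which the zinc finger protein ZFP57 binds when it is methylated, was searched on both strands. It occurred in the windows of 10 of the 31 members (32.3%) and of 12.2% of all genes. The hexamer itself holds a CpG, and the median was 17 CpG over the windows of the 31 members against 8 over all genes. Whether the hexamer is more frequent than this CpG content brings was not tested. Of the 7 called members with a window *Pon3* alone held it, and 24 of the 31 windows belonged to members that were not called. A match is a description of letters and not of binding.

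On chromosome 7 the Prader-Willi cluster, whose paternal genes are lost in the human syndrome of that name, had 1 gene of 6 called. *Ndn* encodes necdin, a growth-restraining protein of the MAGE family, and had values of 6.10, 6.62 and 6.48 in M0505 cells and 4.91, 4.77 and 4.57 in STOSE cells. The lines did not overlap, and the STOSE values lay around the olfactory receptor percentile, with 2 of 3 above it. *Ndn* was 3.15-fold lower (-1.65 on the log2 scale, SE 0.14, limma adjusted p = 1.65e-05), with a range of 2.91 to 3.49 when single arrays were left out. The neighbouring MAGE gene *Magel2* was not called, with means of 5.07 ± 0.07 (SD, n = 3) and 5.16 ± 0.17 (SD, n = 3). *Ube3a*, a ubiquitin ligase gene that only neurons imprint, had means of 8.53 ± 0.15 and 8.13 ± 0.05 (-0.39 on the log2 scale, SE 0.08, adjusted p = 0.00336). *Peg12*, of the Frat family, differed the other way, at 6.01 ± 0.04 and 6.41 ± 0.19 (0.40, SE 0.09, adjusted p = 0.00662). Neither reached 2-fold. *Snrpn* and *Mkrn3* were under the percentile on all 6 arrays.

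A gene beside this cluster was called higher. *Atp10a*, a lipid-flipping ATPase gene reported as imprinted in some mouse tissues, had values of 4.75, 4.80 and 4.74 in M0505 cells and 7.65, 7.70 and 7.60 in STOSE cells, which is 7.40-fold higher (SE 0.06, limma adjusted p = 7.23e-09). It is among the 5 nearest genes on the array before *Ube3a*, and the arrays of the lines did not overlap. The M0505 values lay at the olfactory receptor percentile of 4.74, with 2 of 3 above it, so the fold is taken over a level near background.

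*Peg3*, a paternally expressed zinc finger gene, was the called member that was higher in STOSE cells. Its values were 10.05, 9.22 and 9.20 in M0505 cells and 10.65, 10.61 and 10.62 in STOSE cells. The STOSE arrays lay close together, whereas M0505 replicate 1 stood between the other M0505 arrays and the STOSE arrays. *Peg3* was 2.20-fold higher (1.14 on the log2 scale, SE 0.20, limma adjusted p = 0.00153). Without M0505 replicate 3 the log2 fold change was 0.99, under 2-fold, and when each of the 6 arrays was left out it ranged from 0.99 to 1.42. *Zim1*, the maternally expressed neighbour, was under the olfactory receptor percentile on all 6 arrays, at 3.82 ± 0.17 (SD, n = 3) and 4.18 ± 0.05 (SD, n = 3). None of the 10 flanking genes of this pair was called. All of those on one side are olfactory receptor genes, the class taken here as silent. *Usp29* and *Zfp773* on the other side had means under the percentile in both lines. Most of the 10 could therefore hardly have shown a fall.

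At the distal end of chromosome 7, *Slc22a18*, a maternally expressed gene for a transporter-like membrane protein, had values of 7.78, 7.55 and 7.60 in M0505 cells and 5.55, 5.59 and 5.74 in STOSE cells. The lines were clearly separated and all 6 arrays lay above the olfactory receptor percentile. The fall was 4.04-fold (-2.01 on the log2 scale, SE 0.08, limma adjusted p = 3.27e-07), with a range of 3.85 to 4.20. The other 3 members of this cluster, also maternally expressed, were not called. *Phlda2*, which restrains placental growth and adjoins *Slc22a18*, was at 5.16 ± 0.15 (SD, n = 3) and 5.10 ± 0.04 (SD, n = 3), and the potassium channel gene *Kcnq1* at 5.30 ± 0.06 and 5.40 ± 0.04. *Ascl2*, a transcription factor gene of the trophoblast, was at 4.85 ± 0.12 and 4.86 ± 0.15. *H19*, the long noncoding RNA of the neighbouring cluster, was at 5.13 ± 0.06 and 5.22 ± 0.02 in its brighter probe set and at 4.17 and 4.39 in the other. The growth factor gene *Igf2*, beside *H19* (5.30 and 5.23), and the cell cycle inhibitor gene *Cdkn1c*, beside *Kcnq1* (5.62 in both lines), were not called either. Within the *Kcnq1* cluster *Tspan32*, a tetraspanin gene, was 2.32-fold higher (SE 0.12, adjusted p = 3.77e-05).

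**Figure D3:**
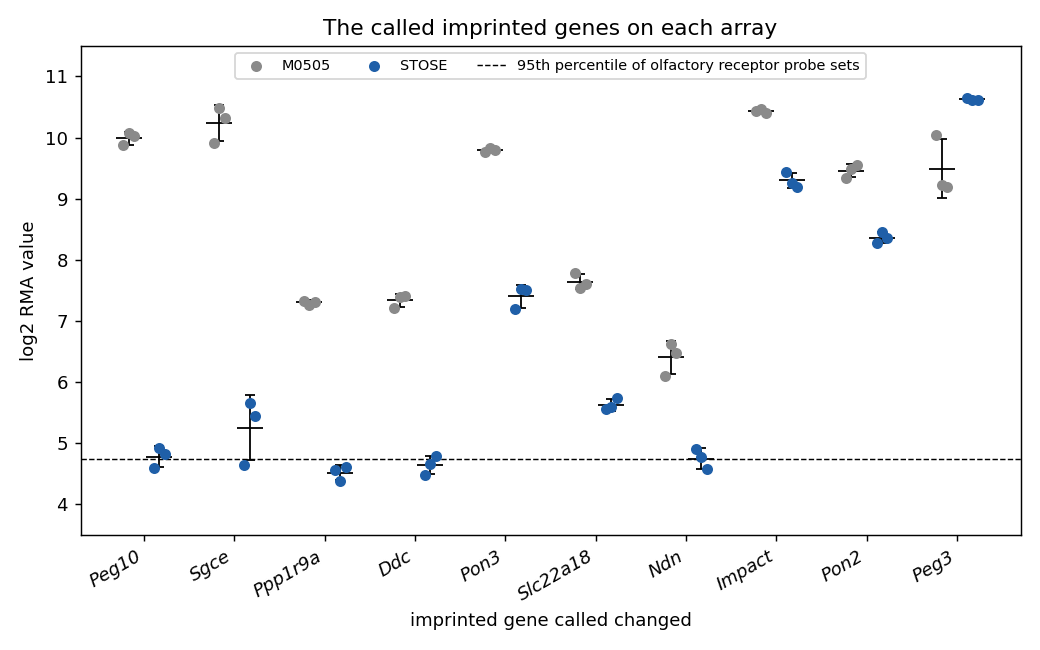
Log2 RMA value (vertical axis) of the 10 called imprinted genes (horizontal axis, ordered by log2 fold change) on each array, with grey points for M0505 arrays and blue points for STOSE arrays, 3 each. Horizontal ticks with bars give the mean and SD, and the dashed line is the olfactory receptor percentile of 4.74. The lines overlap for no gene, and the STOSE points of *Peg10*, *Sgce*, *Ppp1r9a*, *Ddc* and *Ndn* lie around the dashed line.

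*Ddc*, the gene of the decarboxylase that makes dopamine and serotonin, is imprinted in the heart and lies next to *Grb10* on chromosome 11. It had values of 7.21, 7.39 and 7.41 in M0505 cells and 4.48, 4.66 and 4.79 in STOSE cells, with 1 of the latter above the olfactory receptor percentile. *Ddc* was 6.46-fold lower (-2.69 on the log2 scale, SE 0.09, limma adjusted p = 1.20e-07), with a range of 6.12 to 6.79 when single arrays were left out. *Grb10*, an adaptor that damps insulin receptor signaling, was under the percentile on all 6 arrays, at 4.26 ± 0.09 (SD, n = 3) and 4.25 ± 0.12 (SD, n = 3). The lymphoid transcription factor gene *Ikzf1* was the sole called gene among the 10 flanking genes (log2 fold change -1.03).

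*Impact*, which encodes an inhibitor of the amino acid sensing kinase GCN2, stands on chromosome 18 without imprinted neighbours. It had values of 10.44, 10.47 and 10.41 in M0505 cells and 9.44, 9.26 and 9.19 in STOSE cells. It remained strongly expressed and was 2.20-fold lower (-1.14 on the log2 scale, SE 0.07, limma adjusted p = 4.03e-06), with a range of 2.12 to 2.31 when single arrays were left out. When each array was centred on its median its log2 fold change was -0.97, under 2-fold. Of its 10 flanking genes *Npc1* was called lower (-1.57) and *Taf4b* higher (1.42).

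The 28 members that were not called had log2 fold changes between -0.39 and 0.40. Of these, 9 were under the olfactory receptor percentile on all 6 arrays and 14 above it on all 6. The adjusted p was under 0.05 for 11 of the 28, which with the 10 called makes 21 of 38, against 56.5% of all genes. The arrays of the lines did not overlap in 25 of the 38 genes, against 64.6% of all genes, so that neither count stands out from the array as a whole.

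The *Dlk1*-*Dio3* cluster on chromosome 12 had no called gene among 4. *Dlk1*, which encodes a delta-like membrane protein, had values of 6.41, 6.20 and 6.40 in M0505 cells and 6.24, 6.40 and 6.29 in STOSE cells, which overlap. The long noncoding RNA *Meg3* was at 4.74 ± 0.08 (SD, n = 3) and 4.80 ± 0.05 (SD, n = 3), at the olfactory receptor percentile, and *Dio3*, the deiodinase that inactivates thyroid hormone, was under it on all 6 arrays. *Rtl1*, a retrotransposon-derived gene, had 5 probe sets with M0505 means from 2.60 to 5.77. The brightest had a log2 fold change of 0.39 (SE 0.10, limma adjusted p = 0.00914) and the others from 0.06 to 0.22. The annotated spans of *Rtl1* and *Meg3* overlap, so their signals may not be separable.

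On chromosome 6, the *Mest* cluster lies apart from *Sgce* and *Peg10* and had no called gene among 3. *Mest*, a paternally expressed gene of the hydrolase family that is widely expressed in the embryo, was under the olfactory receptor percentile on all 6 arrays, at 4.18 ± 0.02 (SD, n = 3) and 4.19 ± 0.13 (SD, n = 3). *Copg2*, a coatomer gene whose end overlaps that of *Mest*, was at 9.60 ± 0.03 and 9.22 ± 0.03 (-0.39 on the log2 scale, SE 0.05, limma adjusted p = 0.000355). *Klf14*, a maternally expressed transcription factor gene, was at 6.54 ± 0.03 and 6.90 ± 0.13 (0.36, SE 0.08, adjusted p = 0.00380). The arrays did not overlap for *Copg2* and *Klf14*, but both differences were far below 2-fold. *Nap1l5*, also on chromosome 6, was under the percentile on all 6 arrays.

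Among the genes of the single-gene clusters and of *Nnat*, none but *Impact* was called. *H13*, a signal peptide peptidase gene, was at 11.28 ± 0.06 (SD, n = 3) and 11.37 ± 0.02 (SD, n = 3). *Gnas*, the gene of the stimulatory G protein subunit, was at 9.15 ± 0.01 and 9.03 ± 0.02 in its brighter probe set, and at 8.16 and 8.29 in the other, so that the 2 probe sets differed in sign. *Igf2r*, which clears IGF2 from the cell surface, was at 8.86 ± 0.07 and 8.66 ± 0.08 (-0.20 on the log2 scale, SE 0.07, limma adjusted p = 0.0343). Its paternally expressed antisense partner *Airn* had a log2 fold change of -0.08 (SE 0.09). *Blcap*, at 7.33 ± 0.10 and 7.57 ± 0.08, and *Nnat*, which lies inside it, at 4.71 ± 0.10 and 5.00 ± 0.12, both had differences of under 2-fold. *Plagl1*, a growth-restraining zinc finger gene, was at 4.84 ± 0.08 and 4.50 ± 0.13, close to the olfactory receptor percentile, as was *Rasgrf1*, a Ras exchange factor gene, at 4.49 ± 0.05 and 4.74 ± 0.14.

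Set side by side, the clusters with at least 2 members in the table had median log2 fold changes of -2.39 for *Sgce*-*Peg10* (5 of 7 lower), -1.35 for *Grb10* (1 of 2 lower), -0.03 for *Kcnq1* (1 of 4 lower) and 0.01 for *Mest* (0 of 3 called). They were 0.07 for *Dlk1*-*Dio3* (0 of 4 called), 0.12 for the Prader-Willi cluster (1 of 6 lower), 0.27 for *Nnat* (0 of 2 called) and 0.75 for *Peg3* (1 of 2 higher). In the *Kcnq1* and Prader-Willi clusters the median was thus near that of all genes although 1 member fell. Members near or under the olfactory receptor percentile of 4.74 in M0505 cells could hardly have shown a 2-fold fall, and they weigh on these medians. *Ascl2*, *Phlda2* and *Kcnq1* had M0505 means of 4.85, 5.16 and 5.30. *Tfpi2*, *Asb4*, *Grb10*, *Mest*, *Dio3*, *Snrpn*, *Mkrn3* and *Zim1* were under the percentile on all 6 arrays. The medians therefore do not rank the clusters by loss of expression. Members of a cluster share a locus and are not replicates, and no test was made between clusters.

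Genes of both parental classes were among the calls. Of the 18 genes in the table read from the paternal copy in mouse, 5 (27.8%) were lower and 1 (5.56%) higher, and of the 19 read from the maternal copy 4 (21.1%) were lower and none higher, against 7.59% lower and 4.90% higher of all genes. In the *Sgce*-*Peg10* cluster the 5 lower genes were 2 paternal and 3 maternal ones. *Pon2*, *Pon3* and *Ppp1r9a* are known as imprinted mainly in placenta or embryo, and the copy they are read from in these cells was not measured.

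Most genes that flank the clusters were not called. Around the clusters other than *Sgce*-*Peg10*, 145 different genes on the array lay among the 5 nearest on either side. 8 of them (5.52%) were called lower and 4 (2.76%) higher, below the 7.59% and 4.90% of all genes, and their median log2 fold change was 0.08. Only listed members were left out, so these flanking genes include some of the further imprinted genes counted below, such as *Igf2*, *Airn* and *Atp10a*. *Atp10a* is a higher call in both counts. Beside *Sgce*-*Peg10*, near the start of the chromosome, 2 of 9 flanking genes were lower, *Pdk4* and *Dync1i1*. Single large falls stood beside members that were not called, with *Phactr2* (at least 7.46-fold lower) and *Fuca2* (log2 fold change -1.93) beside *Plagl1*, and *Ctsh* (at least 29.1-fold lower) beside *Rasgrf1*, the bounds again from STOSE arrays under the percentile. Other calls were *Podxl* beside *Mest* (-2.10), *Id1* beside *H13* (-1.20) and, in the other direction, *Lsp1* (1.10) and *Gm7290* (1.01) beside *H19*.

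Of 33 further imprinted genes in the table, 2 (6.06%) were called lower and 2 (6.06%) higher, close to the 7.59% and 4.90% of all genes, with a median log2 fold change of 0.16. The lower genes were *Zrsr1*, a splicing factor gene (2.68-fold, SE 0.10, limma adjusted p = 7.66e-06), and *Inpp5f*, an inositol phosphatase gene of which one isoform is imprinted (2.59-fold, SE 0.06, adjusted p = 6.62e-07). The higher genes were *Atp10a* and *Tspan32*. *Calcr*, which lies beside *Tfpi2* and is imprinted in brain, was under the olfactory receptor percentile on all 6 arrays.

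**Figure D4:**
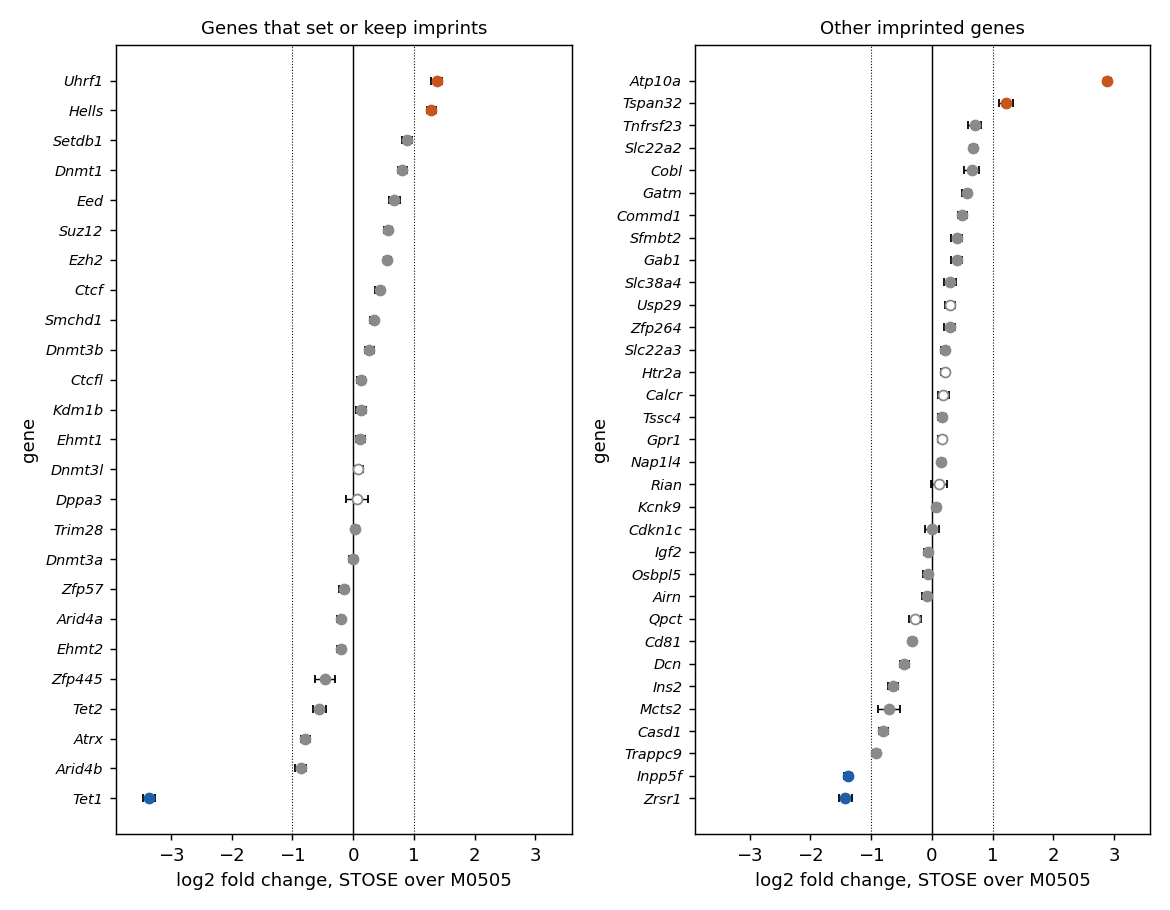
Log2 fold change of STOSE over M0505 cells (horizontal axis, points) with its standard error (bars) for 25 genes that set or keep imprints (left) and 33 further imprinted genes (right), each sorted by value. Blue marks genes called lower, orange genes called higher, open symbols genes under the olfactory receptor percentile on all 6 arrays, and dotted lines 2-fold. Folds against STOSE arrays under the percentile, such as that of *Tet1*, are shown as fitted. *Tet1* at -3.36 and *Atp10a* at 2.89 lie farthest from 0.

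Among 25 genes that set or keep imprints, 2 (8%) were higher and 1 (4%) was lower in STOSE cells, against 4.90% and 7.59% of all genes, with a median log2 fold change of 0.12. *Dnmt1*, the methyltransferase that copies methylation after replication, had values of 9.68, 9.51 and 9.45 in M0505 cells and 10.42, 10.35 and 10.30 in STOSE cells (0.81 on the log2 scale, SE 0.08, limma adjusted p = 3.05e-05), which is under 2-fold. *Uhrf1*, which guides DNMT1 to half-methylated sites, was 2.60-fold higher (SE 0.09, adjusted p = 4.45e-06). The chromatin helicase gene *Hells* was 2.44-fold higher (SE 0.07, adjusted p = 1.24e-06). *Tet1*, which oxidises methylated cytosine, had values of 7.84, 7.95 and 7.65 in M0505 cells and 4.60, 4.30 and 4.47 in STOSE cells, all 3 of the latter under the olfactory receptor percentile. It was at least 8.41-fold lower (adjusted p = 5.88e-08). *Zfp57* and *Trim28*, whose proteins together hold methylation at imprint control regions, were expressed in both lines at 10.17 ± 0.08 (SD, n = 3) and 10.02 ± 0.10 (SD, n = 3) for *Zfp57* and 10.32 ± 0.04 and 10.36 ± 0.07 for *Trim28*. *Ctcf*, the insulator protein of the *H19* control region, had a log2 fold change of 0.43 (SE 0.07, adjusted p = 0.00104). The study reports a larger share of cells in S phase in STOSE than in M0505 cells, and its part in these levels was not tested. DNA methylation was not measured, and whether these differences in RNA level bear on the imprinted genes was not tested.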

How the data were processed

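RNA of M0505 and STOSE cells was measured on 6 Mouse Gene 1.0 ST GeneChips (Affymetrix), 3 for each line, grouped by sample title. The authors deposited log2 values after RMA normalization, 1 column for each array. The submitters' processing notes name Affymetrix Expression Console and RMA. Software versions, annotation release and genome build are not given in the sources used here. The authors' means and fold changes in the same table were not used. All 6 columns were matched to samples by name. An array has no read depth, and the number of arrays limits the precision.

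Of 28944 probe sets, 23530 carried a symbol and stood for 20405 genes, each represented by its probe set with the highest mean. The lines were compared without covariates in limma 3.58.1 (lmFit, eBayes; R 4.3.3). On simulated data of the same design, with 200 of the 20405 genes shifted by 2 on the log2 scale, 100% were recovered and 0 false calls arose. That shift is well past the 2-fold threshold and the other genes had no difference. The simulation therefore does not cover genes near the threshold, such as *Pon2*, *Impact* and *Peg3*. With 3 against 3 arrays a two-sided exact permutation test stops at 0.1, so it was not used. Gene order, names and promoters came from RefSeq, GRCm38.p6, which placed 97.5% of the genes. Flanking genes are the 5 nearest on the array on each side that are not listed members.

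The members and lists were chosen with earlier results of these data known. Named singly were all members, further imprinted, imprint-keeping or flanking genes that were called, and 7 others fixed by name (*Igf2*, *Cdkn1c*, *Dnmt1*, *Uhrf1*, *Trim28*, *Zfp57*, *Ctcf*). *Casd1*, *Bet1*, *Slc25a13*, *Samd9l*, *Ccdc132*, *Shfm1*, *Dlx6*, *Dlx5*, *Acn9*, *Pon1*, *Calcr* and *Airn* were named after their values were seen. 1 called flanking gene is not reported here. The alternatives were a further quantile normalization, median centring of arrays, dropping the lowest 25% or 50% of genes by mean level, averaging a gene's probe sets, the t-test of the methods, limma with trend and robust estimation, other fold thresholds, a replicate block and leaving out each array.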

Additional observations from a re-analysis of the deposited data

How the results depend on the processing

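No called gene among the 55 genes tried singly changed direction in any alternative, and 7 of the 10 called imprinted genes stayed past the threshold in each alternative with the 2-fold rule in which they were tested. The exceptions were *Pon2* (-0.93) and *Impact* (-0.97) after centring, and *Peg3* (0.99) without M0505 replicate 3. At 4-fold 6 imprinted genes were lower and 0 higher, against 2.49% of all genes lower, and without a fold threshold 13 were lower and 8 higher. Over all genes 1000 were higher and 1548 lower, with 186 and 509 at 4-fold and 6454 and 5066 without a fold threshold. Centring raised the median log2 fold change of all genes from 0.08 to 0.24 and the share of higher calls from 39.2% to 52.4% (1363 higher, 1237 lower). Leaving out single arrays gave 0 to 1 higher imprinted genes.

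The replicate block changed no call among the imprinted genes (9 lower, 1 higher) and gave 1001 higher and 1548 lower genes over all. Arrays with the same number correlated in their deviations from the line means at 0.26, 0.04 and 0.25, and each correlated best with its own number. The labels name no pairs, and whether arrays of the same number were handled together was not tested.

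Genes near 0 turned sign, none of them called. With a further quantile normalization the log2 fold changes were -0.068 for *Mest*, -0.056 for *Ascl2*, 0.17 for *Dlk1*, -0.011 for *Meg3* and -0.0023 for *Dio3*. With centring they were 0.13 for *Asb4*, 0.096 for *Phlda2*, 0.14 for *Dlk1*, 0.15 for *Grb10*, 0.047 for *Gnas*, 0.097 for *Igf2* and 0.012 for *Zfp57*. With the mean of probe sets *Gnas* was at 0.010. Without single arrays the ranges were -0.062 to 0.088 for *Ascl2*, -0.10 to 0.0076 for *Dlk1*, -0.12 to 0.083 for *Cdkn1c*, -0.14 to 0.0094 for *Phlda2*, -0.071 to 0.047 for *Grb10*, -0.042 to 0.086 for *Mest*, -0.0053 to 0.062 for *Trim28*, -0.0093 to 0.15 for *Magel2* and -0.0023 to 0.15 for *Dio3*. The dimmest 50% of genes held 24 members, including the called *Ndn*, *Ddc* and *Ppp1r9a*, which therefore have no value there.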
